A study of Mus musculus with 61 samples.

Results

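Drd1, the gene of the dopamine receptor D1, and Sfxn1, the gene that lies beside it on mouse chromosome 13, were followed through 61 libraries of RNA from sorted nuclei of the nucleus accumbens. Both were taken by name from the table of raw counts, as 2 of its 55401 genes, and both had been chosen by their counts and FPKM in these same libraries, which differ between D1 and D2 nuclei. The contrast of D1 with D2 nuclei is therefore described here without a test, while the effects of morphine within each kind of nucleus are tested. Both genes passed the filter on low counts.

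The mice were males that carried LSL-eGFP::L10a, a green fluorescent ribosomal protein gene that Cre switches on, together with either D1-Cre or D2-Cre, and nuclei were sorted by fluorescence from frozen punches of tissue. Group names give the repeated treatment over 15 days first and the challenge after 30 days of withdrawal second, with M for morphine and S for saline, and the mice were killed 1 h after the challenge. D1 nuclei were represented by 7 MM, 9 MS, 8 SM and 8 SS libraries, and D2 nuclei by 7 MM, 8 MS, 7 SM and 7 SS libraries. The labels assign no dose to a mouse and do not say whether a library is 1 mouse or a pool, so the p values measure the spread between libraries. Age was not given. How the drivers of these mice were made is not stated in the sources at hand. As general background, Cre drivers of this kind are often transgenes built from large genomic segments around the receptor genes, and reads from the Drd1 locus itself and from any inserted copy of it cannot be told apart in counts per gene.

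The D1 receptor is coupled to the stimulatory G proteins Gs and Golf and raises cyclic AMP in the projection neurons of the direct pathway, whereas the D2 receptor of the indirect pathway is coupled to Gi. Sideroflexin 1, the protein made from Sfxn1, sits in the inner mitochondrial membrane and carries serine into the mitochondrion, where serine feeds one-carbon metabolism. Drd1 serves as a defining marker of direct pathway neurons.

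Drd1 (ENSMUSG00000021478.6, protein coding) spans chr13:54051183-54055705 on the minus strand of mm10, 4523 bases of which exons make up 80.2%. Sfxn1 (ENSMUSG00000021474.9, protein coding) spans chr13:54071869-54108342 on the plus strand, 36474 bases of which exons make up 27.0%. The genes point away from each other across a gap of 16163 bases, and neither overlaps another annotated gene. The RefSeq promoter windows of both genes, each from 250 bases before to 50 bases after an annotated start on GRCm38.p6, are shown because they mark the divergent starts of this pair. They are printed 5′ to 3′ on the strand of the gene, with matches to GGGCGG or its reverse complement, the GC box, in capitals. RefSeq gives Drd1 a pair of starts, with windows at chr13:54055609-54055908 and chr13:54054731-54055030, and the window of Sfxn1 lies at chr13:54071595-54071894.
Drd1, upstream start: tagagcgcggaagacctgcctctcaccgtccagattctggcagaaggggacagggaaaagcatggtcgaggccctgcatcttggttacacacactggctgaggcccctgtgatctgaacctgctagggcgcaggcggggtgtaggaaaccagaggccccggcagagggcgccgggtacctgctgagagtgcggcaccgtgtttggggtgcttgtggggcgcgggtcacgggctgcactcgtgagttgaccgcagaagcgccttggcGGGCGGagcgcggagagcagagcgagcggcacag
Drd1, downstream start: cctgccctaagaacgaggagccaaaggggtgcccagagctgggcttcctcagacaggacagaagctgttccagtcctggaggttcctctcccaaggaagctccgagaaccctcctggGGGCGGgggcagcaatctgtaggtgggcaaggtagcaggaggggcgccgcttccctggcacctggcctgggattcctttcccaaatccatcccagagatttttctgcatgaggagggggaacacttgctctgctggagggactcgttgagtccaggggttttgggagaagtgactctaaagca
Sfxn1: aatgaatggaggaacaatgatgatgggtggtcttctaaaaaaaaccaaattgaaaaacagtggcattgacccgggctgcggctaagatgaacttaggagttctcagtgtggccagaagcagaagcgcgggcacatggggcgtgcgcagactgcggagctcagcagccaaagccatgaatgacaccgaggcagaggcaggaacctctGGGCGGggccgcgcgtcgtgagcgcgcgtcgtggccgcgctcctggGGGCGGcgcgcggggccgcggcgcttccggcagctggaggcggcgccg

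The windows held 1, 1 and 2 GC boxes, and 35.7% of the 32851 RefSeq promoter windows of this length held at least 1. Searches on both strands for the cyclic AMP response element TGACGTCA, the AP-1 motif TGANTCA, the TATA box TATAAA and the CCAAT box CCAAT gave 0 matches in all 3 windows. Those letters stood in 1.79%, 7.81%, 13.6% and 37.4% of all windows. The base composition was rich in G and C, at 65.7% and 59.3% for the Drd1 windows and 63.3% for that of Sfxn1, against a median of 52.7% over all windows. The upstream Drd1 window held 23 CpG dinucleotides, the downstream one 6 and the Sfxn1 window 30, against a median of 7.

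The libraries held 11518606 to 26108954 counts, with a median of 17924400. As a measure of background, 1464 genes of olfactory and vomeronasal receptors were taken by name. They were assumed to be largely silent in striatal cells, and single members were not checked for transcription. These genes gave a density of 0.253 to 0.660 CPM per kb of gene in 60 libraries and of 0.057 in D1 SS replicate 1. That library also stood apart in TMM scaling, the edgeR factor for library composition, with 0.388 against 0.811 to 1.17 in the others, and results that rest on it are given with and without it. CPM are counts scaled to a common library total, and FPKM, which divide such values by gene length in kb, were the values the authors deposited, and the length behind them was the whole gene span, introns included, so a background density in CPM per kb can be set beside them. The summed FPKM of 8 markers of D1 neurons, Drd1 among them, was 22.5 to 99.6 in D1 and 10.0 to 25.9 in D2 libraries, and that of 6 markers of D2 neurons was 8.82 to 55.7 in D1 and 44.3 to 131.5 in D2 libraries, ranges that overlapped at their edges. Of 5 cortical glutamatergic, 3 cholinergic, 4 astrocyte, 4 microglial and 3 endothelial markers, 0 had a median of at least 2 times background over all libraries, and of 4 oligodendrocyte markers 1 did. In D1 SS replicate 1 the cortical markers summed to 17.6 FPKM, against a median of 3.70 over D1 libraries.

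Drd1 was several times higher in D1 than in D2 nuclei under every treatment. In MM the lowest, median and highest values were 9.65, 13.2 and 25.1 FPKM in D1 and 1.48, 2.64 and 3.05 FPKM in D2 nuclei. In MS they were 9.08, 11.7 and 29.7 FPKM in D1 and 1.93, 3.06 and 4.95 FPKM in D2 nuclei. No D1 library fell into the range of the D2 libraries. In SM they were 6.56, 15.1 and 21.2 FPKM in D1 and 1.73, 2.32 and 3.09 FPKM in D2 nuclei. In SS they were 8.58, 12.3 and 23.1 FPKM in D1 and 1.34, 2.08 and 2.68 FPKM in D2 nuclei. The highest values in D1 came from MS replicate 2 and, in SS, from replicate 1, the library of low background.

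Over all treatments Drd1 averaged 14.0 ± 5.22 FPKM in D1 (SD, n = 32) and 2.51 ± 0.762 FPKM in D2 nuclei (SD, n = 29), from 497 to 2749 counts per D1 library and 98 to 390 counts per D2 library. In bulk RNA of this kind, fewer nuclei that express a gene and less RNA per nucleus cannot be told apart. By group mean the order was D1 MM at 15.3 ± 5.72 FPKM (SD, n = 7), SM at 14.1 ± 4.81 (SD, n = 8), MS at 13.9 ± 6.26 (SD, n = 9) and SS at 12.97 ± 4.68 (SD, n = 8), followed by D2 MS at 3.12 ± 0.912 (SD, n = 8), MM at 2.44 ± 0.644 (SD, n = 7), SM at 2.32 ± 0.587 (SD, n = 7) and SS at 2.08 ± 0.472 (SD, n = 7). Only the step between D1 SS and D2 MS exceeded the SDs of both groups beside it. The Drd1 signal in D2 nuclei was not at background, at a median of 5.15 times and at least 2.28 times the receptor-gene density in every D2 library, while in D1 nuclei the median was 27.1 times.

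Sfxn1 was also higher in D1 nuclei, with far less spread. In MM it had 2.45, 2.65 and 3.31 FPKM in D1 and 0.732, 0.804 and 0.875 FPKM in D2 nuclei, as lowest, median and highest. In MS it had 2.22, 2.53 and 3.31 FPKM in D1 and 0.698, 0.793 and 0.868 FPKM in D2 nuclei. Here too the ranges lay far apart. In SM it had 2.02, 2.69 and 3.25 FPKM in D1 and 0.718, 0.793 and 0.921 FPKM in D2 nuclei. In SS it had 2.16, 2.51 and 2.94 FPKM in D1 and 0.729, 0.784 and 0.941 FPKM in D2 nuclei. Within each kind of nucleus the 4 treatments overlapped almost entirely.

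By mean, Sfxn1 was ordered D1 MM at 2.75 ± 0.297 FPKM (SD, n = 7), SM at 2.64 ± 0.377 (SD, n = 8), MS at 2.58 ± 0.321 (SD, n = 9) and SS at 2.54 ± 0.266 (SD, n = 8), then D2 SM at 0.805 ± 0.066 (SD, n = 7), SS at 0.803 ± 0.0682 (SD, n = 7), MM at 0.802 ± 0.0498 (SD, n = 7) and MS at 0.793 ± 0.0529 (SD, n = 8). Neighbours in that order differed by less than their SDs, except at the step from D1 to D2. The coefficient of variation over libraries was 11.9% in D1 and 7.05% in D2 nuclei, against 37.2% and 30.3% for Drd1. Because Sfxn1 is the longer gene it drew more reads than Drd1 despite the lower FPKM, at a mean of 95.9 CPM (not TMM-scaled) in D1 and 29.3 CPM in D2 nuclei, against 63.6 and 11.4 CPM for Drd1. In D2 nuclei Sfxn1 lay close to background, at a median of 1.69 times with a range of 1.23 to 2.67 times, while in D1 nuclei the median was 5.75 times.

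**Figure D1:**
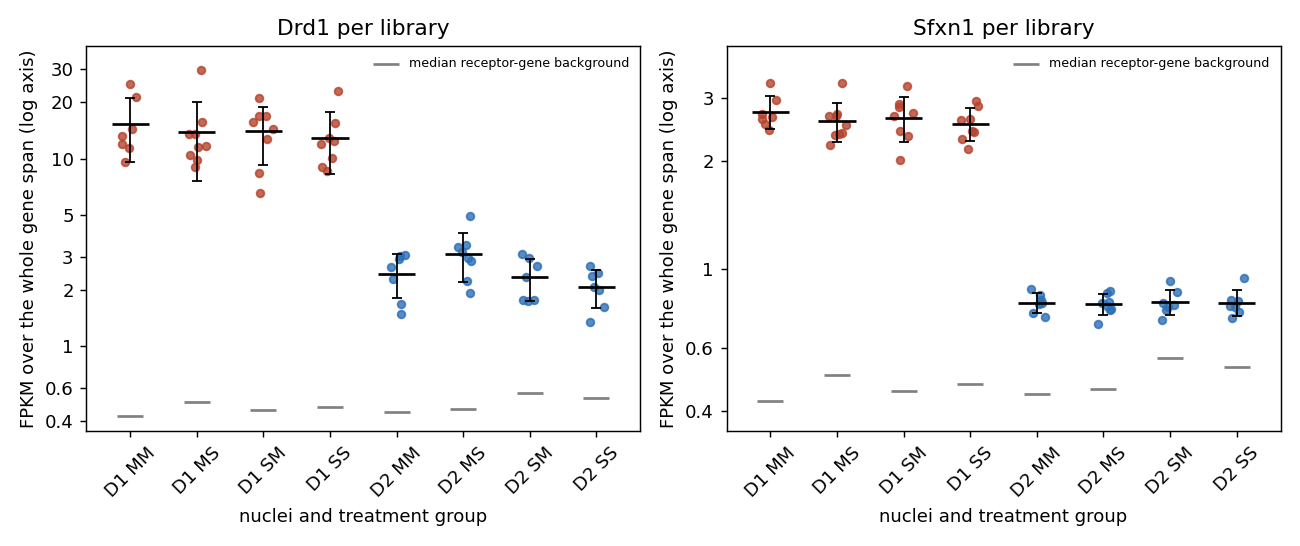
Deposited FPKM of Drd1 (left) and Sfxn1 (right) in each of 61 libraries, on log axes, by nuclei and treatment; black bars are the group mean ± SD and grey dashes the median receptor-gene background in CPM per kb. The D1 libraries, from 6.56 FPKM for Drd1 and 2.02 FPKM for Sfxn1, lie above every D2 library, which reach 4.95 and 0.941 FPKM.

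Such a complete separation was rare in the table. In CPM not TMM-scaled, Drd1 was at least 29.8 in D1 and at most 22.4 in D2 libraries, and Sfxn1 at least 73.8 in D1 and at most 34.4 in D2 libraries. Every D1 library stood above every D2 library for 6 of 42870 genes (0.014%), a contrast that the choice of members had used. The others were Pdyn, the precursor of dynorphin, the solute carrier gene Slc35d3, and the pseudogenes Gm18974, which lies near Drd1, and Gm10493. Within single treatments the share of genes so separated was 0.175% in MM, 0.0373% in MS, 0.042% in SM and 0.0257% in SS.

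As log2 fold changes of D1 over D2 nuclei from edgeR, Drd1 stood at 2.72 ± 0.37 in MM, 2.10 ± 0.34 in MS, 2.71 ± 0.37 in SM and 3.15 ± 0.38 in SS (SE). Sfxn1 stood at 1.85 ± 0.19 in MM, 1.63 ± 0.17 in MS, 1.82 ± 0.18 in SM and 2.03 ± 0.18 in SS (SE). For both genes SS gave the highest value and MS the lowest. The SS values rest in part on D1 SS replicate 1, without which they were 2.54 for Drd1 and 1.71 for Sfxn1, and SS no longer gave the highest value.

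Taking off the background brought the folds of the 2 genes close together. The mean FPKM over all treatments was 5.59 times as high in D1 as in D2 nuclei for Drd1 and 3.28 times for Sfxn1. With the receptor-gene density of each library taken off first, a step chosen after the values were seen, the means were 13.6 ± 5.32 FPKM in D1 (SD, n = 32) and 2.02 ± 0.827 FPKM in D2 nuclei (SD, n = 29) for Drd1, a fold of 6.71. For Sfxn1 they were 2.17 ± 0.421 FPKM in D1 (SD, n = 32) and 0.313 ± 0.106 FPKM in D2 nuclei (SD, n = 29), a fold of 6.94. By treatment these folds were 7.58 in MM, 5.01 in MS, 7.64 in SM and 8.01 in SS for Drd1, and 7.12, 5.87, 8.13 and 7.22 for Sfxn1 in the same order. Without D1 SS replicate 1 those in SS were 7.05 for Drd1 and 6.88 for Sfxn1. All of these folds take the receptor-gene density as the baseline. The 5 noncoding transcripts or pseudogenes near Drd1 that are named below had higher levels than that density in D1 nuclei, with medians of 1.14 to 2.54 FPKM. Their D2 medians were 0.495 to 0.911 FPKM. Sfxn1 had medians of 2.62 FPKM in D1 and 0.794 FPKM in D2 nuclei. Folds against such a local baseline were not tested.

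Other markers put these sizes in place. Pdyn had log2 values of D1 over D2 nuclei of 2.56 ± 0.30 in MM, 2.19 ± 0.27 in MS, 2.33 ± 0.29 in SM and 2.31 ± 0.29 in SS (SE). Tac1, the precursor of substance P, had 1.86 ± 0.31, 0.96 ± 0.28, 1.41 ± 0.30 and 1.71 ± 0.31 in the same order. Without D1 SS replicate 1 the SS values were 2.02 for Pdyn and 1.35 for Tac1. In every treatment Sfxn1 lay below Pdyn, and Drd1 lay above Pdyn in MM, SM and SS. At the locus of the opposite receptor, Drd2 ran from -4.23 in MS to -2.61 in SS, and its neighbours Ankk1 and Ttc12 from -2.74 in MS to -1.98 in SS and from -2.04 in SS to -1.70 in MS. Without D1 SS replicate 1 the SS values were -2.99 for Drd2, -2.04 for Ankk1 and -1.90 for Ttc12. The SM values of the fit with all libraries were close to these, at -2.95, -2.04 and -1.90. The ends given for SS therefore rest in part on D1 SS replicate 1.

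The genes around Drd1 bracketed the ends of the difference without placing them exactly. Of 50 annotated genes within 1000 kb of Drd1 with a row in the table, 45 passed the filter, and within 400 kb 14 of 17 did. A contiguous run of 7 genes, with Drd1 and Sfxn1 among them, had a log2 of D1 over D2 nuclei above 1 in all 4 treatments. It covered chr13:53888627-54141802, 253.2 kb, and was bounded after the values were seen. The 5 other genes of the run are noncoding transcripts or pseudogenes: Gm18974 (at -160.3 kb from Drd1, where minus is toward lower coordinates), E130119H09Rik (-135.4 kb), Gm34557 (-116.4 kb), Gm48550 (-74.5 kb) and, on the far side of Sfxn1, Gm18473 (85.2 kb).

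These 5 genes had mean log2 values over the treatments of 1.31 to 1.43, lower than the 2.67 of Drd1 and the 1.83 of Sfxn1 and much alike. Set against background, their medians were 2.56 to 5.40 times as high in D1 and 1.01 to 1.86 times as high in D2 nuclei. Beyond the run the mean log2 was 0.21 for the next gene on the left, the lincRNA Gm48548 at -272.2 kb, and 0.23 for the next on the right, the histamine receptor gene Hrh2 at 136.4 kb. The 38 genes outside the run had mean log2 values of -0.13 to 0.58, with a median of 0.07. Within 400 kb those were Gm34278 at -0.08, Gm16578 at 0.17, Gm48623 at 0.28, Gm48622 at 0.23 and, as the highest, Cplx2, the gene of a synaptic release protein, at 0.58. Cplx2 differed by treatment, with 0.52 in MM, -0.10 in MS, 0.74 in SM and 1.16 in SS (0.49 without D1 SS replicate 1), and 2 of the 38 genes passed 1 in any treatment.

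**Figure D2:**
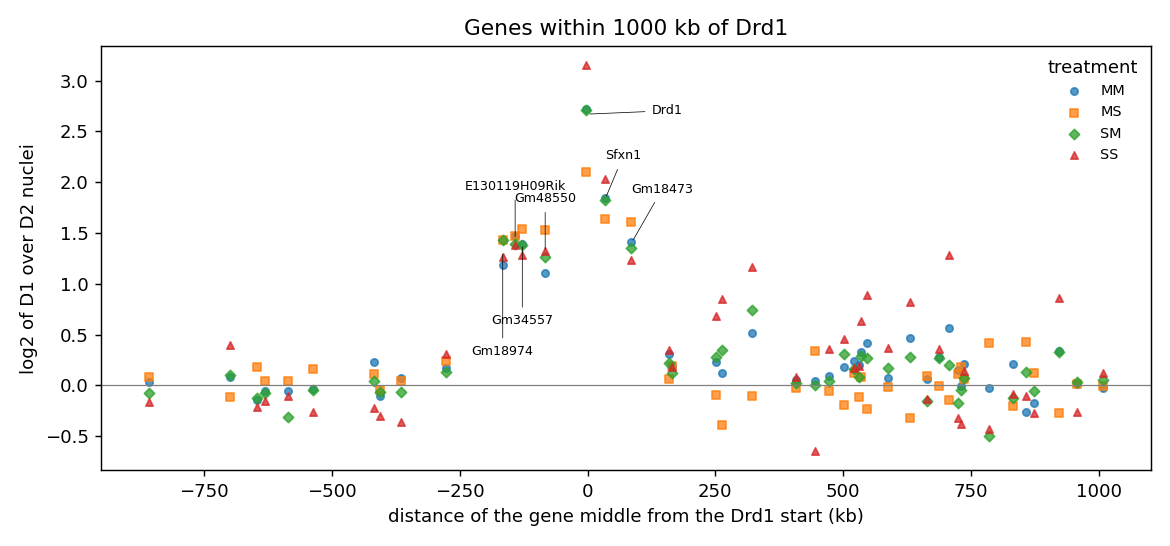
Log2 of D1 over D2 nuclei in each treatment (symbols) for the 45 genes within 1000 kb of Drd1 that passed the filter, by distance of the middle of the gene from the Drd1 start in kb. The 7 named genes lie above 1 in all 4 treatments, and the means of the 38 others run from -0.13 to 0.58.

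The levels of the members and of those neighbours moved in opposite ways with background. Over libraries, FPKM of Drd1 fell as the receptor-gene density rose, with Pearson r = -0.80 and Spearman rho = -0.83 in D1 (n = 32) and r = -0.73 and rho = -0.69 in D2 nuclei (n = 29). Sfxn1 had r = -0.84 and rho = -0.92 in D1 nuclei, but r = -0.06 and rho = -0.14 in D2 nuclei (permutation p = 0.738 and 0.479, both raw and adjusted). For Gm34557, the longest of the 5, FPKM rose with the density, with r = 0.87 and rho = 0.77 in D1 and r = 0.81 and rho = 0.70 in D2 nuclei. Gm48550 had r = 0.88 and rho = 0.91 in D1, and r = 0.71 and rho = 0.69 in D2 nuclei. Each of these apart from Sfxn1 in D2 had a two-sided permutation p of at most 8e-05, with 1e-05 the smallest that 100000 draws can give, and an adjusted p of at most 0.000132 over 28 such relations. The relations were added after the values were seen, and FPKM and density share the library total.

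Leaving out the 2 libraries farthest from the median density, D1 SM replicate 2 and D1 SS replicate 1 in D1, gave r = -0.83 for Drd1, -0.94 for Sfxn1, 0.77 for Gm34557 and 0.84 for Gm48550 in D1 nuclei. In D2 nuclei, without MM replicates 2 and 7, these were -0.72, -0.20, 0.77 and 0.72. Gm18974 and E130119H09Rik also had positive r, of 0.67 and 0.82 in D1 and 0.63 and 0.67 in D2 nuclei, and Gm18473, with few reads, 0.46 and 0.31. A rise with background was not particular to the run, since Gm34278, outside it, had r = 0.87 in D1 and 0.78 in D2 nuclei. Hrh2 next to the run had r = -0.31 in D1 and 0.38 in D2 nuclei, and Cplx2 -0.90 in both.

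The library of lowest background drew the genes of the run apart. In D1 SS replicate 1 Drd1 stood at 23.1 FPKM and Sfxn1 at 2.86 FPKM, against medians of 12.7 and 2.62 FPKM over the 31 other D1 libraries, and at 404.9 and 50.1 times background. In the same library Gm18974 had 1.06, E130119H09Rik 0.900, Gm34557 0.878 and Gm48550 0.863 FPKM, each below the other D1 libraries, whose medians were 2.04, 2.54, 2.26 and 1.91 FPKM. Gm18473 had 2 counts there, 0.0903 FPKM against a median of 1.14. The receptor genes alone held a density of 0.057 CPM per kb, so that the first 4 neighbours still lay at 15.1 to 18.5 times background in it. Such multiples were not particular to the run. In the same library the genes outside it, within 400 kb and past the filter, lay at 1.28 times (Gm34278) to 201.2 times (Cplx2), with Hrh2 at 17.9 times. What part the background had in the counts of the neighbours was not tested, and reads of the locus itself and of any inserted copy cannot be told apart.

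**Figure D3:**
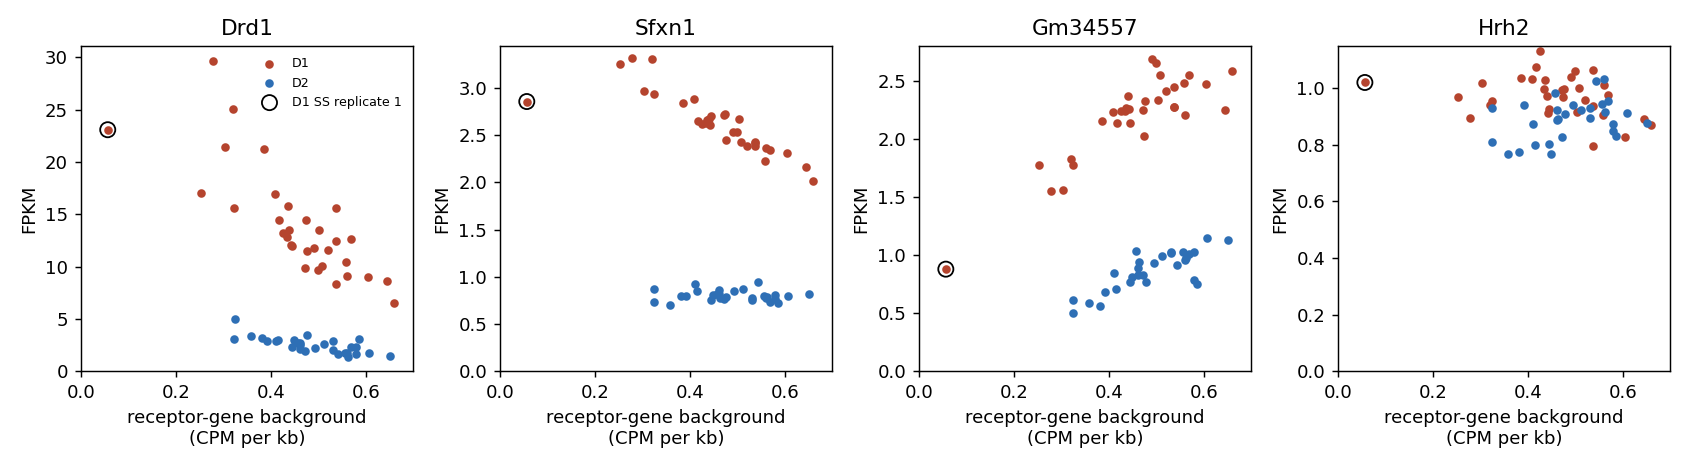
Deposited FPKM against the receptor-gene density (CPM per kb) in each library for Drd1, Sfxn1, the neighbour Gm34557 and Hrh2, which lies outside the run, with D1 libraries in red and D2 libraries in blue. Drd1 and, in D1 nuclei, Sfxn1 fall with the density (r = -0.80 and -0.84 in D1), Gm34557 rises (r = 0.87 in D1), and the circled library, D1 SS replicate 1, has 23.1, 2.86 and 0.878 FPKM of the 3.

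On TMM-scaled values the 2 genes tracked each other within each kind of nucleus. On log2 TMM-scaled CPM, Sfxn1 and Drd1 had r = 0.94 and rho = 0.90 over 32 D1 libraries and r = 0.75 and rho = 0.71 over 29 D2 libraries. The permutation p values were 1e-05, the smallest the draws can give, and 2e-05 for rho in D2 nuclei, with adjusted values of at most 2e-05 over 6 relations. Without the 2 libraries of the most extreme Drd1 values r was 0.90 in D1 (MS replicate 2 and SS replicate 1 left out) and 0.64 in D2 nuclei (MS replicate 2 and SS replicate 7 left out). Without TMM scaling r was 0.85 in D1 nuclei (permutation p = 1e-05) but -0.03 in D2 nuclei (permutation p = 0.885), so that in D2 nuclei the relation held on the scaled values only. On the scaled values both genes fell as the background rose. In D1 nuclei Drd1 had r = -0.86 and rho = -0.88, and Sfxn1 r = -0.95 and rho = -0.96. In D2 nuclei Drd1 had r = -0.82 and rho = -0.77, and Sfxn1 r = -0.84 and rho = -0.85. The 4 had permutation p values of at most 2e-05, raw and adjusted. On FPKM, Sfxn1 in D2 nuclei showed no such fall (r = -0.06, permutation p = 0.738). The TMM factor enters the scaled values. It was 0.844 in the D2 library of lowest density, MM replicate 2, and 1.16 in that of highest, MM replicate 7. The part of the factor in these relations was not tested.

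Genes of like pattern were ranked by Spearman rho over libraries among 27253 genes of at least 1 mean log2 CPM. Over all 61 libraries, where the gap between D1 and D2 nuclei dominates, Drd1 was most like Tac1 (0.957), Sfxn1 (0.954), Pdyn (0.953), the muscarinic receptor gene Chrm4 (0.946) and Slc35d3 (0.935). Sfxn1 was most like Drd1 (0.954), Pdyn (0.948), Slc35d3 (0.924), Chrm4 (0.915) and Tac1 (0.901). Within the 32 D1 libraries neither list of 5 kept a gene. Drd1 was then most like St8sia3 (0.965), G3bp2, Akap5, Pja2 and Ranbp2 (0.956), with Sfxn1 at rank 815, and the genes most like Sfxn1 included Tia1 (0.986), Fam102b, Fam214a and Abat (0.983), with Drd1 at rank 3289. The rho between the members was 0.898 there, against medians over all genes of -0.20 for Drd1 and -0.19 for Sfxn1.

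In edgeR, neither gene passed the threshold in any of the morphine contrasts. DESeq2 called Drd1 higher in D2 MS over SS, where it called 12.9% of all genes higher. It also called Drd1 lower in the difference of that contrast between D1 and D2 nuclei, where it called 13% of all genes lower. In D1 nuclei, MM over SS gave a log2 of -0.05 ± 0.39 for Drd1 (SE, adjusted p = 1) and -0.06 ± 0.22 for Sfxn1 (SE, adjusted p = 1). MS over SS gave -0.27 ± 0.37 for Drd1 (SE, edgeR adjusted p = 0.837) and -0.23 ± 0.21 for Sfxn1 (SE, adjusted p = 0.824). SM over SS gave -0.25 ± 0.38 for Drd1 and -0.18 ± 0.22 for Sfxn1 (SE, edgeR adjusted p = 0.955 each). All 6 values were below 0 and turned above it without D1 SS replicate 1, at 0.55, 0.33 and 0.35 for Drd1 and 0.25, 0.08 and 0.14 for Sfxn1 in the same order, again without a call. MM over MS gave 0.21 ± 0.38 and 0.17 ± 0.22, and MM over SM 0.20 ± 0.39 and 0.12 ± 0.22, for Drd1 and Sfxn1 (SE, edgeR adjusted p of at least 0.988). The 95% intervals of Drd1 reached from -0.99 to 0.96 over these 5 contrasts, D1 SS replicate 1 included.

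Of the contrasts of Drd1 and Sfxn1 in D2 nuclei, the largest was that of Drd1 after a morphine history with a saline challenge. MS over SS gave a log2 of 0.75 ± 0.24 (SE, 8 against 7 libraries), a fold of 1.68, with an unadjusted p of 0.00407 and an edgeR adjusted p of 0.0713 over 41125 genes. The ranges overlapped, at 1.93 to 4.95 FPKM in MS and 1.34 to 2.68 FPKM in SS. DESeq2 called it, at 0.80 (adjusted p = 0.0254), along with 12.9% of all genes called higher there. For Drd1 limma voom gave 0.68 (adjusted p = 0.086), and a term for the background density in edgeR brought it to 0.35 (adjusted p = 0.352). The density itself was 0.436 ± 0.0725 CPM per kb in MS (SD, n = 8) and 0.512 ± 0.0499 in SS (SD, n = 7), and its part in the difference beyond that fit was not tested. Sfxn1 in the same contrast had 0.13 ± 0.07 (SE, adjusted p = 0.21). Markers of the sorted cells lay as far above 0 as Drd1, with 6 of 6 D2 neuron markers above 0 at a median log2 of 0.80 and 6 of 6 markers of projection neurons in general at 0.75, against -0.05 over all genes. The D2 neuron markers summed to 52.3 to 131.5 FPKM in MS and 44.3 to 89.9 FPKM in SS, and the general ones to 15.0 to 42.0 FPKM in MS and 12.4 to 20.5 FPKM in SS. Of 8 D1 neuron markers, Drd1 among them, 5 lay above 0, with a median of 0.08. The part of these markers in the difference of Drd1 was not tested.

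The other contrasts in D2 nuclei were smaller. Drd1 had 0.35 ± 0.25 in MM over SS (SE, edgeR adjusted p = 0.483), 0.16 ± 0.25 in SM over SS (adjusted p = 1), -0.40 ± 0.24 in MM over MS (adjusted p = 0.973) and 0.18 ± 0.25 in MM over SM (adjusted p = 0.766). Sfxn1 had 0.10 ± 0.08, 0.01 ± 0.08, -0.03 ± 0.07 and 0.09 ± 0.08 in the same order (SE, edgeR adjusted p of at least 0.503). Sfxn1 had the narrower 95% intervals over the 5 contrasts, from -0.18 to 0.28. Its mean in D2 nuclei was 0.801 ± 0.0564 FPKM, and 0.313 ± 0.106 FPKM with the background density taken off (SD, n = 29). The background was not taken off in these contrasts, so the intervals refer to signal and background together.

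**Figure D4:**
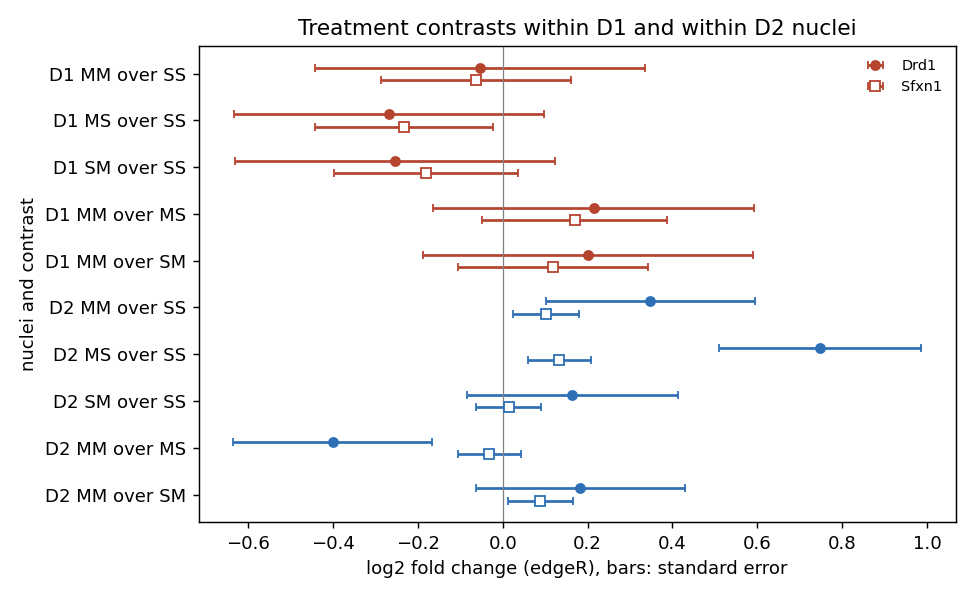
Log2 fold change and SE from edgeR for Drd1 (filled) and Sfxn1 (open) in 5 treatment contrasts within D1 nuclei (red) and within D2 nuclei (blue). All 20 values lie between -0.40 and 0.75, and the highest, Drd1 in D2 MS over SS, has an adjusted p of 0.0713.

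The same contrasts called 0 of 41083 genes in D1 (0%) and 0 of 41125 in D2 nuclei (0%) in edgeR. In D1 nuclei 790 genes in MM over SS, 1101 in MS over SS, 770 in SM over SS, 940 in MM over MS and 550 in MM over SM reached p under 0.05 before adjustment, with 0 genes called by limma voom or by DESeq2. In D2 nuclei 5472, 13164, 1333, 1548 and 3180 genes reached it in the same order, against 2056 by chance. There DESeq2 called 6838 in MS over SS, 1 in MM over MS and 0 in the others, and limma voom called 0.

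Whether morphine acted differently on the members in D1 and in D2 nuclei was tested as a difference of differences. For MS over SS, D1 minus D2, Drd1 had a log2 of -1.05 ± 0.47 (SE, unadjusted p = 0.0292, edgeR adjusted p = 0.165) and Sfxn1 -0.40 ± 0.24 (SE, edgeR adjusted p = 0.285). DESeq2 called that of Drd1, at -1.37 (adjusted p = 0.039), along with 13% of all genes called lower there. Without D1 SS replicate 1 the difference was -0.44 (edgeR adjusted p = 0.688) for Drd1 and -0.07 for Sfxn1. For MM over SS the values were -0.44 ± 0.49 and -0.18 ± 0.25, and for SM over SS -0.44 ± 0.49 and -0.21 ± 0.25, for Drd1 and Sfxn1 (SE, edgeR adjusted p of at least 0.759). These 4 also changed sign without that library. In edgeR 0 of 42870 genes (0%) were called for MM, MS or SM, with 2891, 10571 and 1053 at an unadjusted p under 0.05, against 2143.5 by chance. Without D1 SS replicate 1 these were 2062, 2556 and 998. DESeq2 called 1, 6170 and 0 genes with all libraries, and limma voom 0 each.

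Of the other dopamine receptor genes, Drd2 lay the other way and the rest differed little. Drd2 averaged 1.18 ± 0.349 FPKM in D1 (SD, n = 32) and 12.8 ± 5.80 FPKM in D2 nuclei (SD, n = 29). Drd3, a receptor coupled to Gi, had 1.10 ± 0.127 FPKM in D1 and 0.855 ± 0.0701 FPKM in D2 nuclei (SD), with log2 values of 0.38 to 0.54 over the treatments. Drd4 and Drd5 were near background, with medians of 1.10 and 0.881 times in D1 and 0.995 and 0.837 times in D2 nuclei, and their log2 values ran from -0.13 to 0.11 and from -0.33 to 0.22.

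Among the sideroflexin genes only Sfxn1 had libraries of D1 and D2 nuclei that did not overlap. Sfxn3, the other member above 2 times background, averaged 3.30 ± 1.46 FPKM in D1 (SD, n = 32) and 2.73 ± 0.936 FPKM in D2 nuclei (SD, n = 29), with log2 values of 0.50 in MM, -0.22 in MS, 0.52 in SM and 1.14 in SS, or 0.39 in SS without D1 SS replicate 1. Sfxn2, Sfxn4 and Sfxn5 lay between 1.89 and 1.98 times background at the median in either kind of nucleus, and their log2 values ran from -0.22 to 0.47. Of 17 genes of serine and mitochondrial one-carbon metabolism, 3 lay above 2 times background, and the median log2 of D1 over D2 nuclei was 0.07 in MM, 0.03 in MS, 0.01 in SM and 0.02 in SS. Amt, a part of the glycine cleavage system, had 0.13, -0.14, 0.22 and 0.71 in that order, Shmt2, the mitochondrial serine hydroxymethyltransferase, 0.53, -0.13, 0.37 and 0.47, and Dld, a shared subunit of mitochondrial dehydrogenases, 0.19, -0.04, 0.13 and 0.58. Without D1 SS replicate 1 the SS values of Amt, Shmt2 and Dld were 0.26, 0.090 and 0.27.

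The cascade below the receptor was abundant in both kinds of nuclei. Of 27 genes of D1 receptor signalling, 21 lay above 2 times background. The phosphodiesterase gene Pde1b averaged 8.27 ± 4.28 FPKM in D1 and 7.02 ± 3.41 FPKM in D2 nuclei, Ppp1r1b, the gene of DARPP-32, 7.70 ± 3.92 and 6.14 ± 2.66 FPKM, Rgs9, a regulator of G protein signalling, 6.48 ± 3.21 and 5.84 ± 2.91 FPKM, and the adenylyl cyclase gene Adcy5 6.01 ± 3.22 and 5.17 ± 2.47 FPKM (SD, n = 32 and 29). The median log2 of D1 over D2 nuclei for the list was 0.19 in MM, -0.25 in MS, 0.28 in SM and 0.75 in SS (0.21 without D1 SS replicate 1), far under that of Drd1 and of either sign. The summed FPKM of the list ran from 34.1 to 123.4 in D1 and from 33.6 to 112.1 in D2 libraries, and the highest was D1 SS replicate 1.

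By treatment, edgeR and limma voom called 0 of the 27 in any contrast. In D2 MS over SS, DESeq2 called 20 of the 27, all higher, where it called 12.9% of all genes higher, and in the difference of that contrast between D1 and D2 nuclei it called 21, all lower, where it called 13% of all genes lower and 1.38% higher. In D2 MS over SS 24 of 27 had log2 values above 0, with a median of 0.60 against -0.05 over all genes, beside the 0.75 of Drd1. In D1 MS over SS 26 of 27 lay below 0, with a median of -0.40 against 0.01, but without D1 SS replicate 1 22 of 27 lay above 0, with a median of 0.057 against 0.011. The lists of dopamine receptors, sideroflexins and one-carbon genes also had 0 members called by edgeR or limma voom in any treatment contrast or difference of differences. DESeq2 called in D2 MS over SS 2 of 5 receptors (Drd1 and Drd2, higher), 2 of 5 sideroflexins (Sfxn3 and Sfxn4, higher) and 6 of 17 one-carbon genes (4 higher and 2 lower, where 3.77% of all genes were called lower). In the difference for MS it called 2, 4 and 3 members of these lists, all lower. In edgeR their medians ran from -0.19 to 0.13 for the receptors, from -0.28 to 0.24 for the sideroflexins and from -0.08 to 0.01 for the one-carbon genes within D1 and D2 nuclei. Without D1 SS replicate 1, the medians of the D1 contrasts over SS ran from -0.050 to 0.20 for the receptors and from 0.0034 to 0.15 for the sideroflexins.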

How the data were processed

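RNA sequencing of sorted nuclei gave 61 libraries. The submitters' processing notes name featureCounts, DESeq2 and mm10, with no versions; an aligner, an annotation release and the strand setting are not stated in the sources at hand. Raw counts, deposited by the authors, entered all tests, and the authors also deposited FPKM values, whose length equalled the whole gene span in GENCODE M21 for 54281 of 54281 identifiers within a relative tolerance of 1e-06. Of 55401 identifiers, 54349 matched that release with their version, 55141 in all, and 260 had no symbol.

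Counts were fitted with edgeR 4.0.16 in R 4.3.3 (TMM scaling, filterByExpr by group, robust quasi-likelihood, two-sided), within D1 (41083 genes), within D2 (41125 genes) and jointly (42870 genes). Genes were called at a Benjamini-Hochberg adjusted p under 0.05 over all genes, and SEs are those of edgeR log2 fold changes. DESeq2 1.42.0, limma voom (limma 3.58.1), other size factors, no filter, a replicate block, a background covariate, a joint fit and leaving out D1 SS replicate 1 were alternatives. The default edgeR, limma voom and DESeq2 fits within D1 and within D2 nuclei were tested on simulated data, for MM over SS only. DESeq2 was allowed a larger share of false calls there, and the other fits were not tested in that way. Correlations used log2 CPM with a prior count of 2 and 100000 two-sided permutations (scipy 1.17.1). Named genes were the members, the neighbours within 400 kb that passed the filter, the 5 genes most like each member over 61 and over 32 D1 libraries, Drd2, Ankk1, Ttc12, Pdyn, Tac1, called list members and up to 4 members of each list by level; 1 gene that this rule names is not reported here. Other markers serve as a check. Promoter sequences are from RefSeq on GRCm38.p6. The members and lists were chosen with earlier results of these data known.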

Additional observations from a re-analysis of the deposited data

Results flagged for a closer look

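Among the 32 combinations of gene, group and scale examined, 8 had a highest library far from the rest by Dixon's test at 95%, which chance alone would give in about 1 of 20 groups. D1 MS replicate 2 held 4 of them, with Drd1 at 29.7 FPKM and 165.7 TMM-scaled CPM and Sfxn1 at 3.31 FPKM and 149.2 TMM-scaled CPM. D1 SS replicate 1 held 2, with Drd1 at 269.7 and Sfxn1 at 269.1 TMM-scaled CPM, where its scaling factor of 0.388 enters, while neither its 23.1 FPKM of Drd1 nor its 2.86 FPKM of Sfxn1 stood out by that test. In D2 nuclei, Sfxn1 stood out at 38.7 TMM-scaled CPM in MS replicate 2 and at 0.941 FPKM in SS replicate 1.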

How the results depend on the processing

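Of 192 alternative values of the tested contrasts of Drd1 and Sfxn1, 163 kept their sign and their side of the threshold. Without D1 SS replicate 1 the D1 contrasts over SS turned to 0.55 (MM), 0.33 (MS) and 0.35 (SM) for Drd1 and 0.25, 0.079 and 0.14 for Sfxn1, and the differences of differences to 0.17 (MM) and 0.17 (SM) for Drd1 and 0.13 and 0.11 for Sfxn1. With the receptor-gene background as a covariate they turned to 0.31, 0.31 and 0.27 for Drd1 and 0.13, 0.093 and 0.085 for Sfxn1 in D1, to 0.15 (MM) and 0.052 (SM) for the differences of Drd1 and 0.10 (MM), 0.090 (MS) and 0.032 (SM) for those of Sfxn1, to -0.16 for Drd1 in D2 MM over SM and to 0.015 for Sfxn1 in D2 MM over MS. In limma voom D1 MM over SS was 0.17 for Drd1 and 0.049 for Sfxn1. None of these 26 reversed values was called in the fit that gave it.

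Drd1 in D2 MS over SS was called by DESeq2 at 0.80 (adjusted p = 0.0254) and with a replicate block at 0.74 (adjusted p = 0.032), against adjusted p values of 0.0713 in edgeR and 0.075 to 0.478 under the other 5 alternatives, and its difference between D1 and D2 was called by DESeq2 at -1.37 (adjusted p = 0.039). Genes called in D2 MS over SS numbered 6838 in DESeq2 and 8595 with the replicate block, against 0 in edgeR. DESeq2 also called 1 in D2 MM over MS, 1 in the difference for MM over SS and 6170 in that for MS over SS, and the background covariate gave 1 in D2 MM over MS. The replicate block turned Drd1 in D1 MM over SS to 0.11. The labels do not say whether numbers shared between groups pair the libraries. Same-numbered ones correlated at -0.58 to 0.74 over 45 pairs in D1 and -0.42 to 0.51 over 42 pairs in D2, and 6 of 31 and 6 of 28 libraries correlated best with their own number. These values do not show a pairing, and whether the numbers mark a shared batch was not tested.

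For D1 over D2, the background covariate moved Drd1 in SS to 2.33. Subtracting the background, an alternative added after the data were seen, moved Sfxn1 to a log2 of 2.83 in MM, 2.55 in MS, 3.02 in SM and 2.85 in SS. The correlation of Sfxn1 with Drd1 in D2 turned to -0.028 without TMM scaling. The cause of these changes was not tested. Drd1 in D2 nuclei rests on 98 to 390 counts per library and Sfxn1 on 407 to 689, and in D1 nuclei 1 library decides the signs of the contrasts over SS.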
